A study of Mus musculus with 4 samples.

Results

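The HoxC cluster of the mouse is a row of 9 homeobox genes, Hoxc4, Hoxc5, Hoxc6, Hoxc8, Hoxc9, Hoxc10, Hoxc11, Hoxc12 and Hoxc13, on the plus strand of chromosome 15. The genes were taken by name and matched through their Ensembl identifiers, and they make up 9 of the 26252 genes and transcript clusters with a tag in the deposited table. Tags were counted in hindlimbs and in forelimbs of CD1 mouse embryos at E14.5, with 2 biological replicates of each limb type; no allele, transgene or treatment is named in the labels, and CD1 is an outbred stock. The labels do not say how many embryos a sample held or whether same-numbered hindlimbs and forelimbs came from the same animals. The p-values therefore measure the spread between these samples, which edgeR estimates for each gene partly from all tested genes. The assay, digital gene expression by SAGE, cuts cDNA with NlaIII, which recognises CATG, and reads 17 bases beside the most 3′ such site. A transcript without a CATG gives no tag, and counts were not scaled by transcript length.

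Hox genes encode transcription factors that give cells their position along the body axis. Within a cluster the genes lie in the order in which they are used, with low-numbered genes active early and towards the head and high-numbered genes active late and towards the tail. In limbs the high-numbered genes of the HoxA and HoxD clusters pattern the segments from shoulder or hip to digits, while genes of the HoxC cluster are known for marking the level of the body at which a limb sits. Low-numbered Hox genes of groups 4 and 5 act at the forelimb level, where they are known to help switch on Tbx5, and Hoxc10 and Hoxc11 are known as genes of the hindlimb and the lumbosacral level.

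The tags that carry most of the counts of each gene are shown first, because the limb difference is read from them. CATG in capitals marks the NlaIII site and the lower-case letters are the counted tag, 5′ to 3′ on the sense strand. In GENCODE M21 each of them matched the transcripts of 1 gene alone.

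Hoxc10, last site: CATGtagcttccttaatggag
Hoxc10, next site: CATGcaaagttgaggtcaaat
Hoxc10, site 3 from end: CATGcactcacatacagcatt
Hoxc13, last site: CATGgacacaggatctggggg
Hoxc11, last site: CATGtgcgtgagtgcgtgtgt
Hoxc9, coding: CATGcggacttggctcgagcc
Hoxc9, coding: CATGtacggctcgcccgggga
Hoxc9, last site: CATGtacagagcagtgttctt
Hoxc8, next to last: CATGccttccttgccttgcct
Hoxc6, last site: CATGaagtggaaaaaagaatc
Hoxc5, site 4 from end: CATGactttctcaccttcctg
Hoxc5, site 5 from end: CATGcactctcaggttcacag
Hoxc4, last site: CATGgtacctgctgggttttt
Hoxc4, next site: CATGtggtgttgtcttagcat

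The deposited table gives 26 counted tags to the 9 genes, holding 224 and 214 counts in hindlimb replicates 1 and 2, and 145 and 46 counts in forelimb replicates 1 and 2. It leaves without a gene the first Hoxc10 tag, the last-site Hoxc9 tag, the Hoxc8 tag and the second Hoxc5 tag shown above, and 1 more Hoxc8 tag. When every tag that matched the sense strand of 1 M21 gene was assigned afresh to that gene, a choice made after the data had been seen, 27 tags were counted for the HoxC genes. They held 401 and 335 counts in hindlimb replicates 1 and 2, and 170 and 69 counts in forelimb replicates 1 and 2. Results are given for the deposited assignment, with the fresh assignment beside it. No genome sequence was searched, so a further match of a tag outside M21 transcripts was not tested.

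The 4 libraries held 1829647 to 5325279 tags, with forelimb replicate 2 the smallest. Levels are in CPM, tag counts scaled to library size with edgeR's TMM factors. A single count equals 0.224 and 0.254 CPM in hindlimb replicates 1 and 2, and 0.256 and 0.621 CPM in forelimb replicates 1 and 2. With tags assigned afresh it equals 0.295 and 0.34 CPM in these hindlimb libraries, and 0.337 and 0.808 CPM in these forelimb libraries. CPM therefore rises under fresh assignment even where the counts stay the same. Intervals cover counting error only, since the tags are PCR products without molecular identifiers. Genes known to mark hindlimb and forelimb stood with the labels, with Pitx1 at 254 and 305 CPM in hindlimb against 3.33 and 1.24 CPM in forelimb, and Tbx5 at 0.894 and 1.52 CPM in hindlimb against 18.4 and 14.9 CPM in forelimb. Calls in gene lists for the tissues a limb holds stand beside those over all tested genes. Of all tested genes, 9.58% were called higher in hindlimb and 7.08% higher in forelimb (edgeR adjusted p under 0.05). All 8 limb mesenchyme genes were counted, and 3 of 7 tested (Prrx2, Msx1, Hand2) were called higher in hindlimb and none in forelimb. Their summed level was 1520 and 1430 CPM in hindlimb against 1340 and 1400 CPM in forelimb. All 6 cartilage genes were counted, 1 was called in each direction, and they summed to 3260 and 4320 CPM in hindlimb against 2620 and 2370 CPM in forelimb. The summed level of 6 skeletal muscle genes was 913 and 1070 CPM in hindlimb, against 2700 and 2170 CPM in forelimb, and 3 of the 6 passed the test as higher in forelimb. Spinal cord also uses HoxC genes. Of 12 neuron and spinal cord markers, 10 were counted in the deposited assignment, and Chat and Slc18a3, known from motor neurons, were not. Of 6 tested, 1 (Stmn2) was called higher in forelimb and 0 in hindlimb, with a median log2 fold change of −1.32. The summed level was 80.0 and 56.0 CPM in hindlimb, against 98.3 and 122 CPM in forelimb. Fresh assignment gave Chat no count either, while Slc18a3 had 1 and 6 counts in hindlimb and none in forelimb. Tags were richer in G and C in hindlimb, at 46.3% and 50.4%, than in forelimb, at 40.6% and 40.2%. The part of tissue makeup in the HoxC differences was not tested, and fewer cells of a type and less RNA per cell cannot be told apart in whole limbs. For base composition, folds are also given with a tag-sequence offset, a per-library correction learned from how tags within a gene differ.

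**Figure D1:**
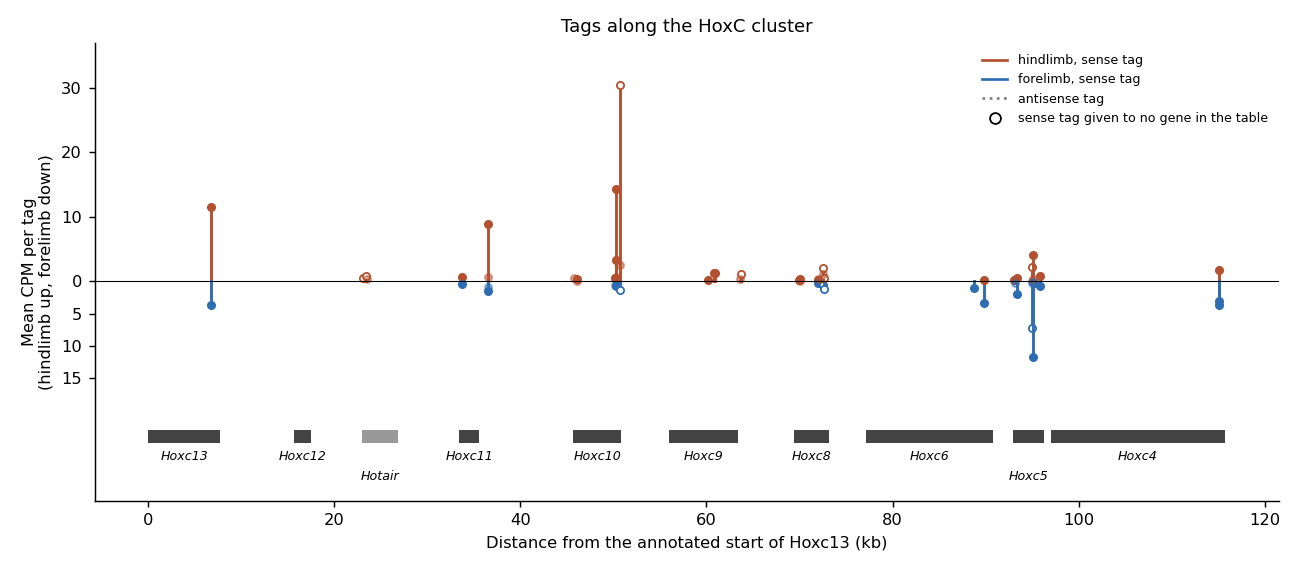
Mean CPM of each tag (vertical axis; hindlimb upwards, forelimb downwards, n = 2 libraries each) against distance in kb from the annotated start of Hoxc13; bars below show the RefSeq extent of each gene, solid lines are sense tags, dotted lines antisense tags, and open points sense tags that the table gives to no gene. The tallest hindlimb signal, at Hoxc10, is a tag with 32.4 and 28.4 CPM in the hindlimb libraries, and the tallest forelimb signal lies in Hoxc5.

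The limb difference turned round within the cluster. In the map of tags along the cluster, signal from Hoxc13 to Hoxc9 stood mainly on the hindlimb side and signal from Hoxc6 to Hoxc4 mainly on the forelimb side. The summed level of Hoxc8 to Hoxc13 was 43.4 and 45.6 CPM in hindlimb, against 7.43 and 6.83 CPM in forelimb. The summed level of Hoxc4, Hoxc5 and Hoxc6 was 6.71 and 8.62 CPM in hindlimb, against 29.7 and 21.7 CPM in forelimb. Both hindlimb libraries were thus higher for the first sum and lower for the second, with no overlap between limb types. The split between these sums was chosen with earlier results of these data known, so they restate the values of the single genes. The whole cluster differed less, at 52.2 ± 2.96 CPM in hindlimb and 32.9 ± 6.05 CPM in forelimb (SD, n = 2 each). With tags assigned afresh, Hoxc8 to Hoxc13 summed to 103 ± 5.63 CPM in hindlimb and 13.4 ± 5.1 CPM in forelimb, and Hoxc4 to Hoxc6 to 13.1 ± 2.67 CPM in hindlimb and 43.1 ± 6.12 CPM in forelimb.

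Of the 9 genes, 7 passed edgeR's filter on low counts. Hoxc8 and Hoxc12 did not. Hoxc9 and Hoxc10 reached its cut-off of 2.44 CPM (before TMM scaling) in the hindlimb libraries alone, and Hoxc4 and Hoxc6 in the forelimb libraries alone, so these 4 entered the test through the limb type in which they were high. Two-sided quasi-likelihood tests in edgeR, with Benjamini-Hochberg adjustment over all 13718 tested genes, placed Hoxc9 and Hoxc10 higher in hindlimb, where 9.58% of all tested genes were called in that direction. Of all tested genes 16.7% were called in either direction. None of the 9 was called higher in forelimb by edgeR, against 7.08% of all tested genes. DESeq2 also called 0 in that direction, with no adjusted p for 4 of the 7. An unadjusted edgeR p was under 0.05 in 6 of the 7, and Hoxc5 and Hoxc6 were the 2 of these higher in forelimb. The share of all tested genes under that unadjusted threshold is not given, so nothing is read from this count. With tags assigned afresh, 8 genes were tested, Hoxc9 and Hoxc10 were higher in hindlimb (9.89% of 12548 genes) and Hoxc5 and Hoxc6 higher in forelimb (6.78%). With the tag-sequence offset Hoxc10 was the HoxC gene called, higher in hindlimb, under either assignment. In the deposited assignment the offset left 0.182% of all tested genes called, 0.124% higher in hindlimb and 0.0583% higher in forelimb. With fresh assignment it left 0.263% called, 0.183% higher in hindlimb and 0.0797% higher in forelimb.

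The limb types did not overlap in CPM in the 7 tested genes, with hindlimb above in 4 (31.4% of all tested genes) and forelimb above in 3 (31.4%). Since the filter favours such genes among Hoxc4, Hoxc6, Hoxc9 and Hoxc10, nothing is read from this count. With fresh assignment the shares of all tested genes were 31.3% with hindlimb above and 30.7% with forelimb above, and of the 8 HoxC genes tested Hoxc8 was the one whose limb types overlapped.

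**Figure D2:**
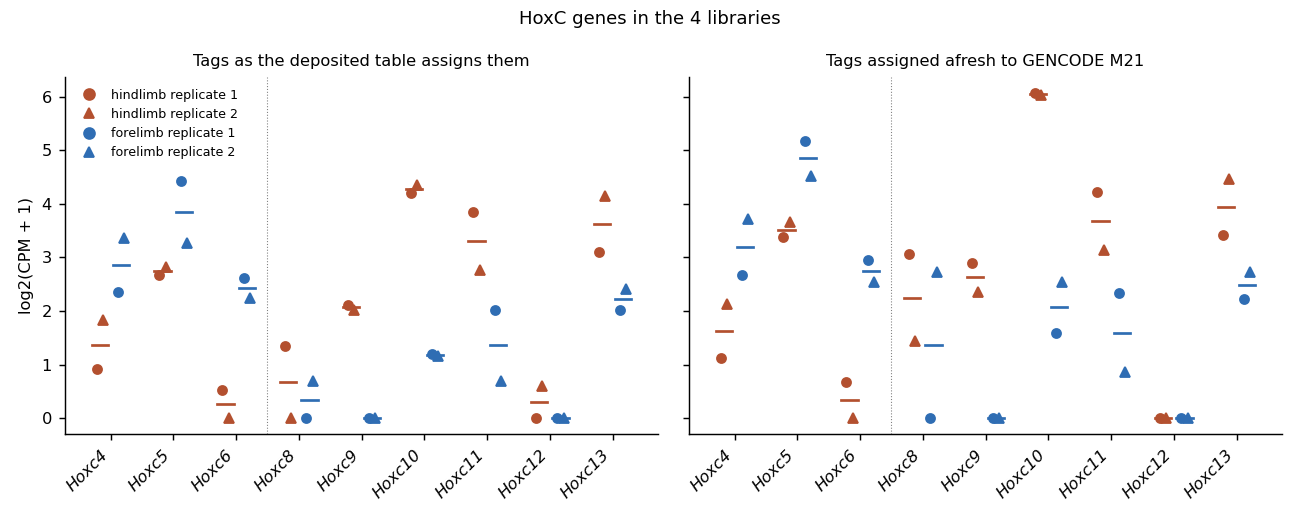
log2(CPM + 1) of each HoxC gene in each library (points; circles replicate 1, triangles replicate 2) with the mean of the 2 libraries of a limb type (short lines), for the deposited tag assignment (left) and tags assigned afresh to M21 (right). Hindlimb lies below forelimb for Hoxc4, Hoxc5 and Hoxc6, left of the dotted line, and above it for Hoxc9, Hoxc10, Hoxc11 and Hoxc13, while Hoxc8 overlaps.

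The genes at the anterior end were counted mainly in forelimb. Hoxc5 (ENSMUSG00000022485, chr15:102967443-103017429, plus strand, GRCm38) had the most counts of the cluster over the 2 forelimb libraries, with Hoxc4 1 count above it in forelimb replicate 2. It had 5.37 and 6.09 CPM in hindlimb replicates 1 and 2, against 20.5 and 8.70 CPM in forelimb replicates 1 and 2. The forelimb libraries lay above both hindlimb libraries, but forelimb replicate 2 lay nearer to hindlimb than to forelimb replicate 1. On the log2 scale this was −1.39 ± 0.57, hindlimb over forelimb (SE, edgeR adjusted p = 0.102), and −0.60 without forelimb replicate 1 and −0.78 with the tag-sequence offset. With tags assigned afresh it had 9.44 and 11.6 CPM in hindlimb, against 35.3 and 21.8 CPM in forelimb, and fell by 1.47 ± 0.48 on the log2 scale in hindlimb (SE, edgeR adjusted p = 0.0417). That call ended without hindlimb replicate 1 (−1.34), hindlimb replicate 2 (−1.61) or forelimb replicate 1 (−1.07), and with the tag-sequence offset (−1.24).

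Most Hoxc5 counts came from inside its annotated 3′ UTR rather than from the site nearest its end. The tag at site 4 from the end, at chr15:103016178-103016198, had 20 and 15 counts in hindlimb and 67 and 10 in forelimb. The tag at site 5, at chr15:103016062-103016082, had 8 and 10 counts in hindlimb and 25 and 13 in forelimb. The last-site tag had 0 and 7 counts in hindlimb and 5 and 0 in forelimb, and made up 6.06% of all Hoxc5 counts. The M21 model of Hoxc5 starts inside the Hoxc10 region and spans Hoxc9, Hoxc8 and Hoxc6, but the counted tags all lie in its downstream end, where no other HoxC gene is annotated in sense.

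Hoxc6 (ENSMUSG00000001661, chr15:102998257-103011881, plus strand), a gene known from the thoracic level and from forelimb motor neurons, had 0.447 and 0 CPM in hindlimb, against 5.12 and 3.73 CPM in forelimb. These rest on 2 and 0 counts in hindlimb and 20 and 6 in forelimb, and the limb types did not overlap. The pooled ratio of hindlimb to forelimb was 0.0504, with a 95% exact counting interval of 0.0058 to 0.201. In edgeR this was −4.07 ± 1.40 on the log2 scale (SE, adjusted p = 0.0531), which did not pass the threshold of 0.05. Without hindlimb replicate 1 it was at −6.84, which is no measured fold because hindlimb replicate 2 had no count. Without hindlimb replicate 2 it was at −3.21. In the deposited assignment the tag-sequence offset gave −3.28 (edgeR adjusted p = 0.456). The tag-sequence model predicted −0.83 on the log2 scale for Hoxc6, hindlimb minus forelimb. Over all tested genes the interquartile range of this prediction was −0.71 to 0.53. With tags assigned afresh the counts of Hoxc6 stayed as they were, and the fold was −4.05 ± 1.30 (SE, edgeR adjusted p = 0.0393). That call ended without hindlimb replicate 2 (−3.21) or forelimb replicate 2 (−4.28) and with the tag-sequence offset (−3.23); without forelimb replicate 1 the gene did not pass the filter.

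Hoxc4 (ENSMUSG00000075394, chr15:103018934-103036852, plus strand), the most anterior gene of the cluster, had 0.894 and 2.54 CPM in hindlimb, against 4.10 and 9.32 CPM in forelimb. Each forelimb library lay above each hindlimb library, while the replicates of each limb type differed by more than 2-fold. The log2 fold change of −1.91 ± 0.97 (SE, edgeR adjusted p = 0.183) did not pass, and was −2.79 to −1.26 without 1 library. Its 2 tags, at neighbouring sites in the 3′ UTR, were unlike each other. The tag at the last site, chr15:103036222-103036242, had 4 and 10 counts in hindlimb and 12 and 7 in forelimb, whereas the next one upstream had 0 and 0 counts in hindlimb and 4 and 8 in forelimb. On the log2 scale the tag-sequence model predicted 0.96 for the last-site tag and −1.5 for the upstream one, hindlimb minus forelimb. Its part in their unlike counts was not tested.

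Hoxc8 (ENSMUSG00000001657, chr15:102990607-102994111, plus strand), known from thoracic vertebrae and brachial motor neurons, lies where the sign of the difference turned. In the deposited assignment it had 7 and 0 counts in hindlimb and 0 and 1 in forelimb, a pooled ratio of 4.59 with a counting interval of 0.589 to 207, and was not tested. With tags assigned afresh it had 25 and 5 counts in hindlimb and 0 and 7 in forelimb, or 7.37 and 1.70 CPM in hindlimb against 0 and 5.66 CPM in forelimb. The limb types overlapped, and in edgeR hindlimb differed by 1.0 ± 1.27 on the log2 scale (SE, adjusted p = 0.63). No difference was detected in either direction. The pooled ratio with fresh assignment was 2.85, with a counting interval of 1.23 to 7.69 that leaves out the spread between replicates. The log2 fold change was −0.31 without forelimb replicate 1, 6.84 without forelimb replicate 2 and 1.69 without hindlimb replicate 2. The value of 6.84 is no measured fold, because forelimb replicate 1 had no count.

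Posterior to Hoxc8 the genes were counted mainly in hindlimb. Hoxc9 (ENSMUSG00000036139, chr15:102976439-102985099, plus strand), known for repressing Tbx5 behind the forelimb level, had 15 and 12 counts in hindlimb, or 3.35 and 3.04 CPM, and no count in either forelimb library. It was at least 5.88-fold higher in hindlimb, computed against 3 counts over the forelimb group (edgeR adjusted p = 0.0462). The fresh assignment gave 22 and 12 counts in hindlimb and again none in forelimb, at least 7.42-fold higher (edgeR adjusted p = 0.0215). The last-site tag had 10 counts in hindlimb replicate 1 and 0 in hindlimb replicate 2. A pair of tags in the coding sequence, at chr15:102981928-102981948 and chr15:102982075-102982095, each had 5 and 6 counts in hindlimb. These tags are 70.6% and 76.5% G and C, and the tag-sequence model predicted 1.68 on the log2 scale for the deposited tags of the gene, hindlimb minus forelimb, and 1.05 for the fresh ones, against an interquartile range of −0.71 to 0.53 over all tested genes. The bounds carry no correction for this. The call in the deposited assignment ended in 13 of 15 alternatives, among them each omission of a library that left the gene tested.

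Hoxc10 (ENSMUSG00000022484, chr15:102966796-102971893, plus strand), a gene of the hindlimb and of lumbar motor neurons, was the most counted HoxC gene in hindlimb. In the deposited assignment it had 17.4 and 19.5 CPM in hindlimb, against 1.28 and 1.24 CPM in forelimb, a log2 fold change of 3.83 ± 0.66 (SE, edgeR adjusted p = 0.00168). More than this was counted in the tag at its last NlaIII site, to which the table gives no gene. That tag lies in the 3′ UTR at chr15:102971837-102971857, 57 bases before the annotated end, and had 145 and 112 counts in hindlimb and 1 and 4 in forelimb. Both hindlimb libraries thus exceeded both forelimb libraries in this tag, as in the sum of the assigned ones. With it, Hoxc10 had 223 and 189 counts in hindlimb and 6 and 6 in forelimb. On the CPM scale of the fresh assignment, where a single count weighs more, this was 65.8 and 64.3 CPM in hindlimb. Forelimb was at 2.02 and 4.85 CPM on that scale. In edgeR the gene was 4.41 ± 0.52 higher on the log2 scale (SE, adjusted p = 4.94e-05).

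Of the other Hoxc10 tags, that at the next site upstream, at chr15:102971390-102971410, had 54 and 65 counts in hindlimb and 5 and 0 in forelimb, and that at site 3 from the end, at chr15:102971361-102971381, had 16 and 12 in hindlimb and 0 and 2 in forelimb. The remaining 2 had 5 and 0, and 3 and 0 counts in hindlimb, and none in forelimb. The last-site tag made up 65.0% and 59.3% of Hoxc10 counts in the hindlimb libraries. Weighted by counts, the Hoxc10 tags are 39.6% G and C, and the tag-sequence model predicted −0.02 on the log2 scale, hindlimb minus forelimb, for the deposited tags and −0.24 for all 5. With the offset the fold was 3.80 in the deposited assignment (edgeR adjusted p = 0.00893) and 4.63 with fresh assignment (edgeR adjusted p = 5.69e-06). The call held in all 20 alternatives in which the gene was tested, at 3.72 to 4.98; reading each gene from its last NlaIII site in the deposited assignment left it without a tag.

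**Figure D3:**
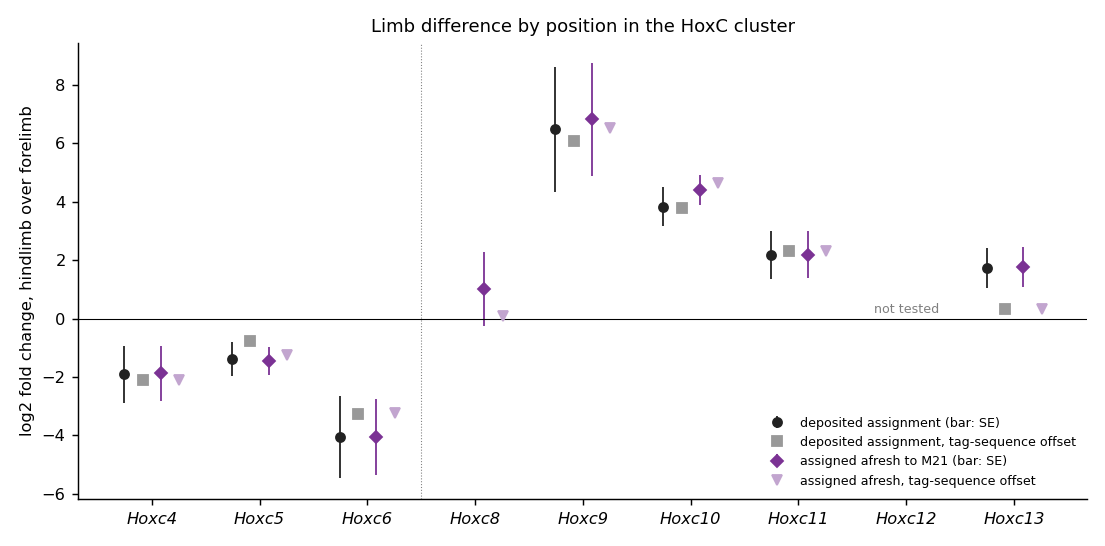
log2 fold change, hindlimb over forelimb (vertical axis), of each HoxC gene in cluster order under both tag assignments, without and with the tag-sequence offset; bars, on the values without the offset, are standard errors of edgeR fits on 2 libraries per limb type. Values are below 0 for Hoxc4 to Hoxc6 and above 0 from Hoxc8 onwards, Hoxc10 moves between 3.80 and 4.63, Hoxc13 drops to 0.32 and 0.34 with the offset, and the fitted value of Hoxc9 is no bound because forelimb had no count.

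Hoxc11 (ENSMUSG00000001656, chr15:102954427-102957708, plus strand), like Hoxc10 a gene of the hindlimb level, had 13.4 and 5.83 CPM in hindlimb, against 3.07 and 0.621 CPM in forelimb. The limb types did not overlap, but replicates within each differed by more than 2-fold. The log2 fold change of 2.18 ± 0.83 (SE, edgeR adjusted p = 0.0767) did not pass, and with the tag-sequence offset it was 2.33. Its pooled ratio was 4.18, with a counting interval of 2.32 to 8.18. The last-site tag, at chr15:102957602-102957622, held 90.6% of its counts, with 57 and 20 in hindlimb and 9 and 1 in forelimb. Without hindlimb replicate 1 it was at 1.47 (edgeR adjusted p = 0.401), without forelimb replicate 2 at 1.64 (adjusted p = 0.243) and without forelimb replicate 1 at 3.89 (adjusted p = 0.0542). Without hindlimb replicate 2 it passed at 2.66 (edgeR adjusted p = 0.0434), with no filter on low counts at 2.18 (adjusted p = 0.0485), and with tags assigned afresh and without forelimb replicate 1 at 3.90 (adjusted p = 0.0374).

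Hoxc13 (ENSMUSG00000001655, chr15:102921103-102928814, plus strand), the most posterior gene, is known for its part in hair and nails. It had 7.60 and 16.7 CPM in hindlimb, against 3.07 and 4.35 CPM in forelimb, a log2 fold change of 1.74 ± 0.68 (SE, edgeR adjusted p = 0.0825) that did not pass. Of its counts, the largest part came from the tag at chr15:102927831-102927851, with 33 and 62 counts in hindlimb and 11 and 7 in forelimb. This tag is 64.7% G and C, and the tag-sequence model predicted 1.38 on the log2 scale for the gene, hindlimb minus forelimb, against a median of −0.14 over all tested genes. With the offset the fold of Hoxc13 was 0.32. Without hindlimb replicate 1 it passed at 2.20 (edgeR adjusted p = 0.0234), and without hindlimb replicate 2 it was at 1.08 (adjusted p = 0.6). The summed level of 8 epidermal genes was 1770 and 2430 CPM in hindlimb, against 1390 and 1370 CPM in forelimb. Of the 8, 3 were called higher in hindlimb (9.58% of all tested genes) and 2 higher in forelimb (7.08%), with a median log2 fold change of 0.02. The part of epidermis in the Hoxc13 values was not tested. Hoxc12 (ENSMUSG00000050328, chr15:102936757-102938609, plus strand), its neighbour, had 2 counts in hindlimb replicate 2 and none in the other 3 libraries, in a tag that matched no M21 transcript, and no fold is given.

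**Figure D4:**
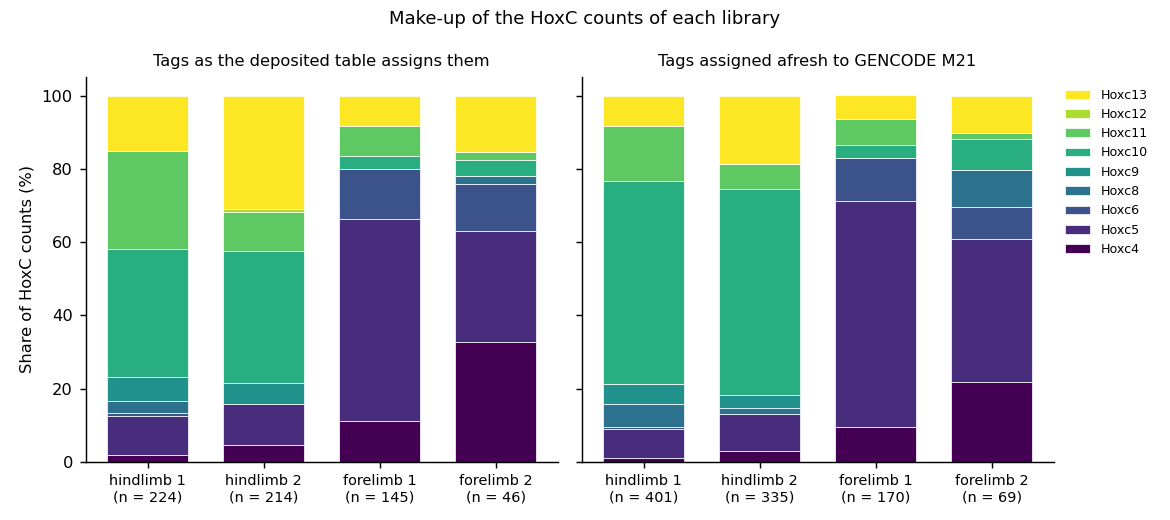
Share of each library's HoxC counts (%, vertical axis) that came from each gene, Hoxc4 at the bottom to Hoxc13 at the top, under both tag assignments; n under each bar is the library's HoxC count. Hoxc4 to Hoxc6, the dark lower blocks, take 13.4% and 15.9% in the hindlimb libraries and 80.0% and 76.1% in the forelimb libraries of the left panel.

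Set against the other genes of the cluster, the makeup of HoxC counts differed between limb types by more than replicates did. The split after Hoxc6 was chosen with earlier results of these data known. The shares therefore restate the folds of the single genes and are no separate support for them. Hoxc4, Hoxc5 and Hoxc6 held 13.4% (Wilson 95% interval 9.54% to 18.5%) and 15.9% (11.6% to 21.4%) of HoxC counts in hindlimb replicates 1 and 2. They held 80.0% (72.8% to 85.7%) and 76.1% (62.1% to 86.1%) in forelimb replicates 1 and 2. The means were 14.6% in hindlimb and 78.0% in forelimb, 63.4 percentage points apart, while the SD within a limb type was 1.76 and 2.77 points. With tags assigned afresh they were 11.3% ± 2.59 in hindlimb and 76.3% ± 9.46 in forelimb, and with the tag-sequence offset 17.7% ± 2.54 in hindlimb and 65.3% ± 7.48 in forelimb (SD, n = 2 each). With both they were 11.8% ± 0.715 in hindlimb and 67.0% ± 14.2 in forelimb. The single largest block was Hoxc10 in hindlimb, at 34.8% and 36.0% of HoxC counts, and Hoxc5 in forelimb replicate 1, at 55.2%; in forelimb replicate 2, with 46 HoxC counts, Hoxc5 held 30.4% (19.1% to 44.8%) and Hoxc4 32.6% (20.9% to 47.0%). A gene's share depends on which of its tags are assigned, and Hoxc10 held 55.6% and 56.4% in hindlimb with its last-site tag counted.

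Along the fitted folds from front to back, the values ran −1.91 for Hoxc4, −1.39 for Hoxc5, −4.07 for Hoxc6, 3.83 for Hoxc10, 2.18 for Hoxc11 and 1.74 for Hoxc13, with Hoxc9 at its lower bound. The change of sign fell between Hoxc6 and Hoxc9. Differences between genes were not tested. The genes went both ways, and the median log2 fold change of the 7 tested was that of Hoxc13, 1.74, against −0.03 over all tested genes. With the tag-sequence offset the median was 0.32, against 0.08 over all tested genes, and with fresh assignment that of 8 genes was 1.38, against −0.02.

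Of the annotated non-coding genes of the interval, Hotair alone had tags. Hotair (ENSMUSG00000086903, chr15:102944062-102947730, minus strand), the long non-coding RNA transcribed against the Hox genes between Hoxc11 and Hoxc12, has 1 tag in the table, with 0 and 3 counts in hindlimb and none in forelimb. That tag lies on the plus strand, antisense to Hotair. The 2 tags that match Hotair in sense, given to no gene in the table, are printed here because they are the transcript's own:

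Hotair, last site: CATGcaatagttccatatgct
Hotair, next site: CATGgctatttcaaagacaaa

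Together they had 12 and 1 counts in hindlimb replicates 1 and 2 and none in either forelimb library. Since 12 of the 13 counts lie in 1 library and the gene did not pass the filter, no test was made. With tags assigned afresh the levels were 3.54 and 0.34 CPM in hindlimb replicates 1 and 2. Their mean was 2.72-fold above 3 counts over the forelimb group, which rests on hindlimb replicate 1 and is no bound for the limb type. Mir196a-2, Mir615 and the annotated small RNAs Gm27337, Gm27443, Gm28011 and Gm27535 had no tag.

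Of the 3 nearest protein-coding genes on each side of the cluster, Hnrnpa1 alone was called. Calcoco1, a coactivator, had 36.9 and 33.7 CPM in hindlimb against 14.9 and 28.6 CPM in forelimb (log2 fold change 0.74 ± 0.41 SE, edgeR adjusted p = 0.223). On the other side, Smug1, a DNA repair glycosylase, was at −0.48 ± 0.37 (SE, adjusted p = 0.397) and Cbx5, which encodes heterochromatin protein HP1 alpha, at 0.12 ± 0.31 (SE, adjusted p = 0.82). Atp5g2 was at −0.12. Atf7 had no tag in the table, and with tags assigned afresh was at 0.47 (adjusted p = 0.309). Hnrnpa1, an RNA-binding protein, was called lower in hindlimb at −1.17 ± 0.35 (SE, adjusted p = 0.0284), with the offset at 0.29; it has processed copies elsewhere in the genome and is uncertain.

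**Figure D5:**
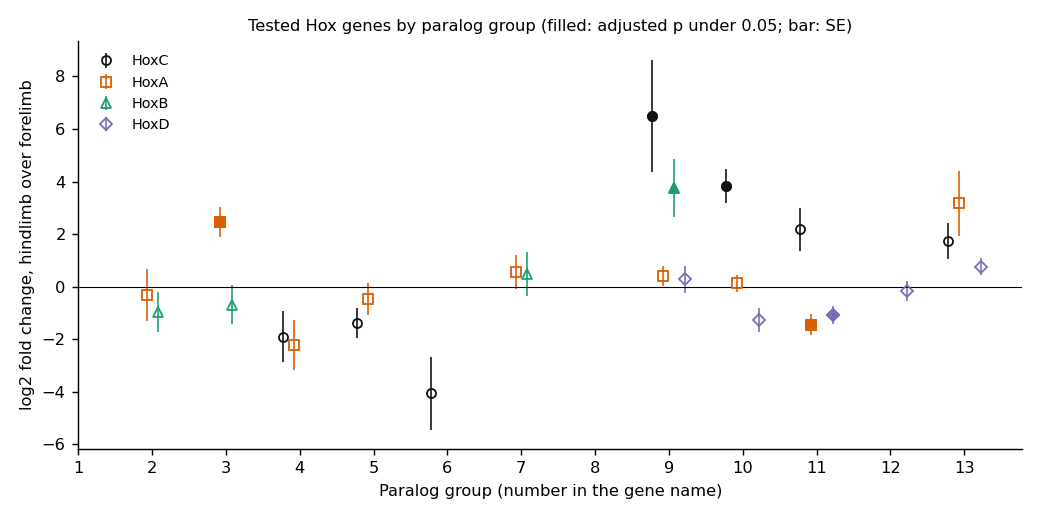
log2 fold change, hindlimb over forelimb (vertical axis), of every tested Hox gene against its paralog group, by cluster, for the deposited tag assignment; filled symbols have an edgeR adjusted p under 0.05 and bars are standard errors (2 libraries per limb type). HoxC genes run from −4.07 to 6.49 and HoxA genes from −2.23 (Hoxa4) to 3.17 (Hoxa13). The group 10 genes of the HoxA and HoxD clusters lie at 0.13 and −1.27.

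Paralogs of the called genes Hoxc9 and Hoxc10 in the other Hox clusters were placed beside them. Hoxa10, the paralog of Hoxc10 in the HoxA cluster, had 97.5 and 79.4 CPM in hindlimb against 68.4 and 94.4 CPM in forelimb, which overlapped (log2 fold change 0.13 ± 0.33 SE, edgeR adjusted p = 0.823). Hoxd10 had 20.1 and 8.11 CPM in hindlimb against 34.3 and 34.2 CPM in forelimb, opposite in sign to Hoxc10 at −1.27 ± 0.45 (SE, adjusted p = 0.059). In group 9, Hoxa9 and Hoxd9 were at 0.40 and 0.28 and did not pass (edgeR adjusted p = 0.509 and 0.749). Hoxb9 was called higher in hindlimb, at 8.05 and 6.34 CPM against 0.768 and 0 CPM in forelimb (3.74 ± 1.10 SE, adjusted p = 0.0282), a call lost with the offset at 3.62. The differences between paralogs were not themselves tested. Outside these groups, Hoxa4 was at −2.23 and Hoxa13 at 3.17, neither called. Of the tested genes, 5 of 9 in HoxA, 2 of 4 in HoxB, 4 of 7 in HoxC and 2 of 5 in HoxD had a fold above 0. Folds of both signs within a cluster were thus not particular to HoxC.

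By cluster, 2 of 7 tested HoxC genes were called higher in hindlimb, as were 1 of 9 tested HoxA genes (Hoxa3), 1 of 4 HoxB genes (Hoxb9) and 0 of 5 HoxD genes. In the direction of forelimb, 1 HoxA gene (Hoxa11) and 1 HoxD gene (Hoxd11) were called, and no HoxB or HoxC gene. Fresh assignment kept all these calls and added Hoxc5 and Hoxc6 on the forelimb side. Over all tested genes of the deposited assignment, calls towards hindlimb made up 9.58% and calls towards forelimb 7.08%. The clusters hold too few tested genes to set their counts apart from these shares, and no such test was made. With the tag-sequence offset the calls of Hoxc9, Hoxb9, Hoxa3, Hoxa11 and Hoxd11 were lost, and that of Hoxc10 stayed. Hoxa11 turned in sign, at 0.70 with the offset against −1.46 on the log2 scale without it. For HoxD and hindlimb, no edgeR call was made, and the highest fold was that of Hoxd13 at 0.75 (adjusted p = 0.114). Summed levels of the HoxA and HoxD clusters overlapped between limb types, with HoxA at 222 and 210 CPM in hindlimb against 217 and 241 CPM in forelimb, and HoxD at 280 and 366 CPM in hindlimb against 278 and 327 CPM in forelimb. These sums join genes of opposite sign, such as Hoxd11 at −1.07 and Hoxd13 at 0.75. The HoxA and HoxD clusters were not split by position as HoxC was. HoxC summed to 50.1 and 54.3 CPM in hindlimb against 37.1 and 28.6 CPM in forelimb.

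The genes nearest in pattern were found by the root mean square distance of log2(CPM + 1), centred per gene, over the 4 libraries, among 13718 genes. Nearest to the sum of Hoxc9 to Hoxc13 were Mettl26, Slc29a1 and Naca, at distances of 0.05, 0.1 and 0.11. Mettl26 had 32.9 and 34.2 CPM in hindlimb against 5.89 and 4.97 CPM in forelimb. Nearest to the sum of Hoxc4 to Hoxc6 were Arhgap45, Dcps and C1qa, at 0.02, 0.05 and 0.08. Arhgap45 had 3.13 and 4.31 CPM in hindlimb against 15.6 and 11.2 CPM in forelimb. With the tag-sequence offset none of these 6 genes passed, with Mettl26 at 0.71 against 2.60 without it and Dcps at 0.06 against −1.66.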

How the data were processed

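The authors deposited whole-number tag counts, whose totals differ between libraries as in raw data, with an Ensembl gene or UniGene cluster per tag; Bowtie and mm9 are named in the submitters' processing notes, with role, version and settings not given in the sources used here. Counts were summed per gene or cluster; tags with neither (14.8% to 18.7% per library) entered no library size or test. The table held 733961 tags. Each was also matched beside every CATG to GENCODE M21 transcripts (GRCm38), whose positions are given; mm9 coordinates were not used. Sequences come from the deposited table and M21.

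The limb types were tested with edgeR 4.0.16 under R 4.3.3 (glmQLFit, glmQLFTest, TMM, filterByExpr, Benjamini-Hochberg at 0.05), with 2 residual degrees of freedom and no block; DESeq2 1.42.0 was an alternative. The standard error is the log2 fold change divided by the square root of edgeR's F. The tag-sequence offset regresses log deviations on base at each position, first dinucleotide and squared GC and purine numbers, within genes. The fits were tested on simulated data. Members, lists and tests were chosen with earlier results of these data known. Named were the 9 HoxC genes, genes of and beside the interval, limb identity genes, called Hox genes and paralogs of called HoxC genes, and the nearest genes in pattern. The promoter table was not used here.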

Additional observations from a re-analysis of the deposited data

Results flagged for a closer look

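Signal lay in tags outside the main measurement. The unassigned Hoxc10 tag at its last NlaIII site had 257 counts over the hindlimb libraries, against 1 and 4 counts in the forelimb libraries. The unassigned tags in sense to Hotair had 13 counts in hindlimb, against none in forelimb. Tags antisense to HoxC genes had 66 counts in hindlimb, as 49 and 17, against 7 and 4 in forelimb replicates 1 and 2. Of these 13 antisense tags, 11 start at the same CATG as a counted sense tag, and 10 lie against Hoxc8 to Hoxc13. No difference was tested for these sums.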

How the results depend on the processing

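No HoxC gene tested in the deposited assignment changed direction in any of the 131 results over alternatives; 13 calls, all of Hoxc9, were lost and 13 appeared, in Hoxc5, Hoxc6, Hoxc11 and Hoxc13, with causes not tested. HoxC genes higher in hindlimb numbered 1, not 2, with DESeq2, library totals alone, the replicate block, the tag-sequence offset, the replicate block with that offset, the most abundant tag only, thinning to the smallest library, the crossed replicate block and fresh assignment with the offset, and 0 from the last NlaIII site only, where Hoxc10 has no assigned tag. DESeq2 gave 4 of the 7 no adjusted p. Higher in forelimb were 1, not 0, with tags of 1 gene only and from the last site only, and 2 with fresh assignment. Without hindlimb replicate 1 the 2 genes higher in hindlimb were Hoxc10 and Hoxc13. Leaving out 1 library gave 1 to 2 genes higher in hindlimb and 0 to 1 higher in forelimb, under either assignment. Over all genes, 2285 calls became 25 with the offset, 24 with block and offset and 33 with fresh assignment and offset, 950 to 3900 without 1 library, and under fresh assignment 3575 and 990 without hindlimb replicates 1 and 2, and 1192 and 979 without forelimb replicates 1 and 2. Same-numbered libraries deviated with r = −0.105 across 13718 genes. The numbers share no stated source, so the block, with 2151 calls, and the crossed pairing, with 3170, are given as counts. The share of Hoxc4 to Hoxc6, hindlimb minus forelimb, was −63.4 points, and −47.6 with the offset, −51.7 from the last site, −60.4 from the most abundant tag and −55.2 with fresh assignment and offset; without 1 library it was −65.4 to −61.4. Hoxc8, Hoxc12 and Hotair did not pass the filter on low counts in the deposited assignment, while Hoxc8 passed it with fresh assignment. Forelimb replicate 2 held 46 HoxC counts.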
